A study of Homo sapiens with 12 samples.

Results

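The genes described here are 42 genes of the TGF-beta and BMP pathway. They were chosen by symbol and not by a rule on their values, but with earlier results of these data known. Of them, 40 had a named probe among the 18665 genes named on the array. LTBP2 and BMPR1A had none. Each gene was read by its brightest probe on all 12 arrays. Ligands of this family are secreted dimers that join type I and type II receptor kinases at the cell surface. The receptors phosphorylate SMAD2 and SMAD3 after TGF-beta or activin, and SMAD1 and SMAD5 after BMP, and these enter the nucleus with SMAD4. In breast cancer cells the TGF-beta branch is known for slowing growth and for favouring mesenchymal change and migration, while BMP signals are best known for inducing the ID genes.

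All arrays held RNA of MDA-MB-231, an oestrogen receptor-negative breast cancer cell line with a mesenchymal appearance. The labels form 4 groups of 3 arrays: no siRNA, a non-targeting siRNA pool, siRNA against CCND1 (cyclin D1) and siRNA against CDK4/6. The sources used here do not say whether cells without siRNA received the transfection reagent. The study speaks of independent experiments behind its array values, but the labels tie no array to a culture, so p-values measure only the spread between these arrays. The values are probe intensities on a linear scale, with a median of 44.1 on every array and a background level of 44.2, and with 3 arrays a label their number limits the precision.

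The targeted genes went against the labels, so a label is used here only as a name. CCND1 was at 2703, 2951 and 3513 on the arrays labelled no siRNA 2, non-targeting siRNA 1 and cyclin D1 siRNA 2, called the 3 arrays lowest in CCND1. It was at 4311, 4361 and 5100 on non-targeting siRNA 3, CDK4/6 siRNA 3 and cyclin D1 siRNA 3, the next lowest. On the remaining 6 it was at 13659 to 15393. CDK4 was at 275, 301 and 409 on non-targeting siRNA 2, no siRNA 3 and CDK4/6 siRNA 2, called the 3 arrays lowest in CDK4, and at 2167 to 2771 elsewhere. CDK6 was low together with CDK4, at 276, 283 and 334, while the other 9 arrays gave 1297 to 1752. High in both CCND1 and CDK4 were replicate 1 of no siRNA, of cyclin D1 siRNA and of CDK4/6 siRNA. In the order of the sample records, the 3 arrays of each of these sets stood next to one another. The reason was not tested. The levels lay in separate clusters of 3 to 6 arrays, so no correlation over the 12 arrays is given. Relations to CCND1 and CDK4 are described without a test, because these arrays were singled out by measured levels.

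Markers of the line were bright: VIM, CD44, AXL, CAV1 and MSN were above background on all 12 arrays. Of the luminal and epithelial markers, PGR and FOXA1 were above background on 0 arrays, ESR1 on 2 and CDH1 on 8, with a highest intensity of 48.5. KRT19 was at 3133 to 4123 and ERBB3 at 2875 to 3933, although both had been listed as markers that should be low in this line. EPCAM and GATA3 were above background on all 12 as well, at 63.1 to 80.3 and 80.2 to 99.6. Of 4 leukocyte markers, CD14 was above background on 12 arrays (245 to 399.5), LYZ on 11 (at most 51.8), CD3E on 1 and PTPRC on 0. Of 5 fibroblast markers, COL1A2 (4100 to 5064), PDGFRB (101 to 169), COL1A1 (54.6 to 68.2) and LUM (47 to 60) were above background on 12 arrays and DCN on 2. Of 4 endothelial markers, PECAM1 was above background on 12 arrays (87.8 to 106), KDR on 2, CDH5 on 1 and VWF on 0.

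Most of the pathway was measurable and varied little. Of the 40 genes, 32 were above background on all 12 arrays, 6 on some and 2, BMP2 and SMAD7, on 0. The test across all genes took 35 of them. Between the lowest and the highest array, the 32 genes differed 1.20-fold (TGIF1) to 1.66-fold (TGFBR2), with a median of 1.33-fold. The median was 1.31-fold over the 11005 genes above background on all arrays.

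**Figure D1:**
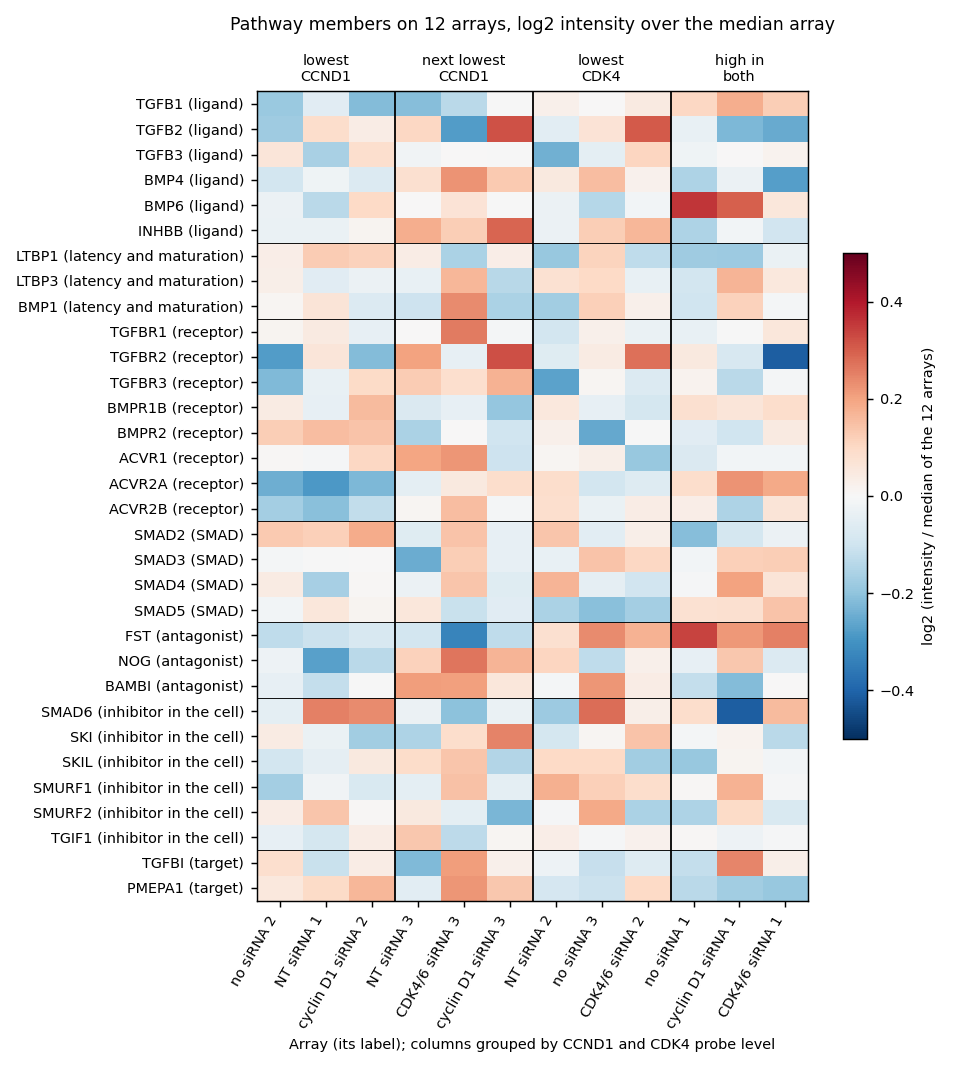
Heat map of the 32 pathway genes above background on all 12 arrays, as log2 of the intensity over the gene's median array. Rows are genes by role and columns are arrays by label (NT, non-targeting), grouped by CCND1 and CDK4 level. TGFB1 and FST are below their median on all 6 arrays at the left, and ACVR2A is low and BMPR2 high on the first 3.

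Among the ligands, TGFB1, the gene of the main TGF-beta isoform, sorted with CCND1. It was at 3105, 3397 and 3039 on the 3 arrays lowest in CCND1 and at 3052, 3215 and 3526 on the next 3. It was at 3600, 3541 and 3647 on the arrays lowest in CDK4 and at 3794, 4006 and 3851 on those high in both. All 6 arrays with low CCND1 thus lay below all others, though only just, with a highest value of 3526 against a lowest of 3541, and the ratio of medians was 0.849. The arrays high in both genes also lay above the other 9. TGFB1 has 1 probe.

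FST, which encodes follistatin, a secreted antagonist that binds activins and some BMPs, showed the same split more widely. It was at 1533, 1554 and 1587 on the arrays lowest in CCND1, at 1574, 1334 and 1535 on the next 3, at 1770, 1974 and 1892 on those lowest in CDK4 and at 2117, 1947 and 1997 on those high in both. The 6 arrays low in CCND1 spanned 1334 to 1587 and the other 6 spanned 1770 to 2117, with a ratio of medians of 0.788. Its dimmer probe, ILMN_1712896, lay at 245 to 307 where CCND1 was low and at 294 to 410 where it was high, so there the ranges overlapped. TGFB1 and FST were the 2 of 35 tested genes, or 5.71%, for which the 6 arrays low in CCND1 stood apart from the other 6. Over all 13601 genes tested this share was 0.963%, and a count of 2 genes is too small to call the pathway different. COL1A2, a fibroblast marker that this line expresses, moved in the opposite direction with the same split, at 4726 to 5064 against 4100 to 4671. It was 1 of 4 tested fibroblast markers to do so. COL1A2 made up most of the sum over all 5 fibroblast markers, as the next brightest, PDGFRB, reached 169 at most. The sum was 5047 to 5344 against 4346 to 4960, with 4 of the 5 markers above background on all 12 arrays. Their part in the result was not tested.

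To show where these 2 genes start, beside BMPR2, a receptor gene that was high where CCND1 was lowest on both of its probes, the 250 bases before a RefSeq start (GRCh38.p14) of each are printed on the gene's strand. Capitals mark matches on either strand to GGGCGG, the GC box bound by SP1-type factors, to CAGAC, the SMAD box, and to GGCGCC, a GC-rich SMAD site. No matches in these windows overlap. TTTNGCGC, an E2F motif, was also searched.
TGFB1 (chr19:41353923-41354172, minus strand): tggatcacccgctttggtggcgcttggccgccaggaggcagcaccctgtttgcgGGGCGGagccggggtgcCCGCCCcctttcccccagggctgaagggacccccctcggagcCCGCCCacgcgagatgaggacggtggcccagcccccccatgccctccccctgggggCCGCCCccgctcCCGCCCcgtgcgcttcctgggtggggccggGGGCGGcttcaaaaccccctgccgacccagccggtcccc
FST (chr5:53480379-53480628, plus strand): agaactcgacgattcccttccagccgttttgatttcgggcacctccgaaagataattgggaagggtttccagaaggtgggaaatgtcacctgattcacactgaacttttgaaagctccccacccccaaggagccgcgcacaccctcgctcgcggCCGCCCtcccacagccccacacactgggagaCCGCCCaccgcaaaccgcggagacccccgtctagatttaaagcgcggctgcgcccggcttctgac
BMPR2 (chr2:202376077-202376326, plus strand): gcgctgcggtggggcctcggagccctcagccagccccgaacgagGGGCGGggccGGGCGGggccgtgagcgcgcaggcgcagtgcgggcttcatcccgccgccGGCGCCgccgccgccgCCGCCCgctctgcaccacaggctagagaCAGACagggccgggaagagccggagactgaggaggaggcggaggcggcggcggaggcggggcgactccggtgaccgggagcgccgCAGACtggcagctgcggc

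TGFB1 held 6 matches to the GC box and FST 2, and neither held a SMAD box or the GC-rich SMAD site. BMPR2 held 3 GC boxes, 2 SMAD boxes and 1 GC-rich SMAD site. In windows of this length, the GC box was found before 42.6% of 35116 RefSeq starts and at least 6 times before 2.22%. The SMAD box was found before 38% and the GC-rich SMAD site before 16.4%. For 37 of the pathway genes with 77 starts in the RefSeq table, the shares were 55.8% for the GC box, 40.3% for the SMAD box and 23.4% for the GC-rich SMAD site. The E2F motif was found before 0 of the 77 and 1.51% of all starts. These are matches of letters and not known sites.

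The other ligands did not sort by CCND1 or CDK4. BMP6 was highest on no siRNA 1 and cyclin D1 siRNA 1, at 75.7 and 72.7, and at 61.5 on CDK4/6 siRNA 1. It was at 57.9, 53.9 and 63.3 on the arrays lowest in CCND1, at 59.2, 62 and 59 on the next 3 and at 57.9, 53.5 and 58.6 on those lowest in CDK4, so the high values came from 2 of the 3 arrays high in both. BMP4, a BMP ligand, was at 2006, 2109 and 2037 on the arrays lowest in CCND1, at 2259, 2500 and 2340 on the next 3, at 2210, 2378 and 2167 on those lowest in CDK4 and at 1921, 2094 and 1767 on those high in both. The arrays high in both held its 2 lowest values. They lay below the next 3 and those lowest in CDK4, and overlapped the arrays lowest in CCND1. TGFB2, another TGF-beta isoform, was at 232, 279 and 269 on the arrays lowest in CCND1, at 282, 216 and 327 on the next 3, at 253, 275 and 324 on those lowest in CDK4 and at 256, 224 and 220 on those high in both. Its highest and its lowest array were both among the next lowest in CCND1. INHBB, an activin subunit gene, ranged from 445 to 606 and TGFB3 from 48.9 to 62.2. BMP7 and INHBA were above background on some arrays only, with highest intensities of 47.1 and 46.2. Of the genes that hold or release ligands, LTBP1 and LTBP3, which tether latent TGF-beta to the matrix, spanned 920 to 1145 and 1926 to 2382. BMP1, a protease that cleaves procollagen and the BMP antagonist chordin, spanned 199 to 265.

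Of the receptors, BMPR2 and ACVR2A, both type II receptors, stood apart on the 3 arrays lowest in CCND1, in opposite directions. BMPR2 was at 361, 369 and 366 there. On the other 9 arrays it was at 297, 331 and 309 (next lowest in CCND1), 337, 277 and 331 (lowest in CDK4) and 318, 309 and 342 (high in both). The ratio of medians was 1.15. Its second probe, ILMN_1789095, gave 274 to 283 against 223 to 258, with a ratio of medians of 1.14, so both probes separated the same arrays.

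ACVR2A, a receptor for activins and some BMPs, was at 6761, 6564 and 6869 on the arrays lowest in CCND1. It was at 7752, 8294 and 8530 on the next 3, at 8530, 7517 and 7664 on those lowest in CDK4 and at 8519, 9358 and 9131 on those high in both. The ratio of medians was 0.794. Its dimmer probe, ILMN_1670912, did not repeat this split, with 425, 462 and 476 on the arrays lowest in CCND1 and 402, 446 and 431 on those lowest in CDK4. It was at 551, 463 and 577 on the next lowest in CCND1 and at 621, 567 and 702 on the arrays high in both. BMPR2 and ACVR2A were 2 of 35 tested genes, 5.71%, where 2.97% of all genes tested stood apart on these 3 arrays. For the 3 arrays next lowest in CCND1, 0 of 35 did, against 4.35% of all genes.

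**Figure D2:**
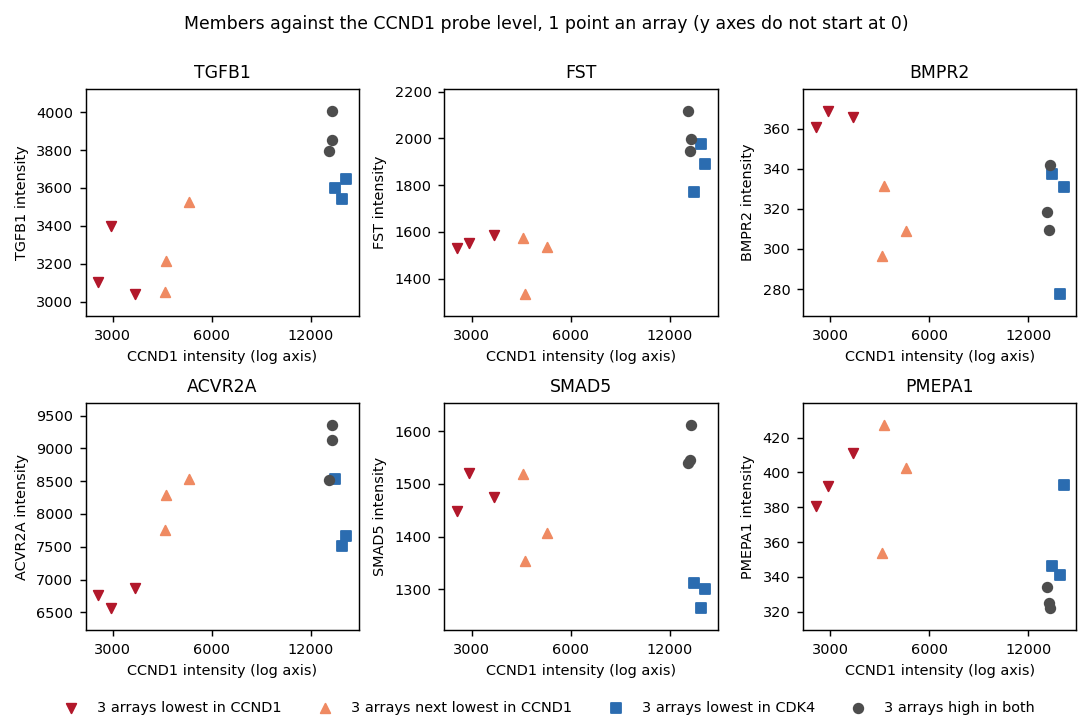
Intensity of 6 pathway genes against the CCND1 intensity (log axis), 1 point an array, with marks for the 4 sets of 3 arrays by CCND1 and CDK4 level; the y axes do not start at 0. The 3 arrays lowest in CCND1 lie at 361 to 369 for BMPR2, above the other 9, and at 6564 to 6869 for ACVR2A, below them.

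TGFBR2, the type II receptor of TGF-beta, had the widest range of the pathway, 3926 to 6536. On this brightest probe its arrays did not sort by either targeted gene. It was at 4301, 5447 and 4499 on the arrays lowest in CCND1, at 6014, 5082 and 6536 on the next 3, at 5008, 5374 and 6334 on those lowest in CDK4 and at 5407, 4949 and 3926 on those high in both. Its second probe, ILMN_1726245, ran from 920 to 1289 and was highest on CDK4/6 siRNA 3, where the brighter probe was at 5082, so the probes differed in order. TGFBR1, the type I receptor of TGF-beta, was at 60.1, 61.3 and 57.8 on the arrays lowest in CCND1, at 59.6, 71.2 and 59.1 on the next 3, at 55.9, 60.5 and 58.1 on those lowest in CDK4 and at 58, 59.4 and 61.8 on those high in both. Apart from CDK4/6 siRNA 3 at 71.2 it hardly varied. TGFBR3, the co-receptor betaglycan, lay at 438 to 594. BMPR1B, a BMP type I receptor, lay at 58.1 to 74 and ACVR1, another type I receptor of BMPs and activins, at 775 to 1029. ACVR1B, the activin type I receptor, was above background on 10 arrays. ACVR2B, a type II receptor related to ACVR2A, was at 51.7, 50.3 and 53.5 on the arrays lowest in CCND1 and at 52.3 to 64.8 on the others. ENG, the co-receptor endoglin, reached 45 at most.

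Among the signal transducers, SMAD5, which carries BMP signals, was lower on the 3 arrays lowest in CDK4, at 1312, 1265 and 1301. It was at 1449, 1520 and 1476 on the arrays lowest in CCND1, at 1519, 1354 and 1406 on the next 3 and at 1541, 1545 and 1612 on those high in both. The ratio of medians of the CDK4-low arrays to the other 9 was 0.857. The dimmer SMAD5 probe, ILMN_2371984, gave 170, 146 and 87.4 where CDK4 was lowest, overlapping the 88.6 to 191 of the rest. SMAD5 was 1 of 35 tested genes, 2.86%, against 1.51% of all genes tested. SMAD2, a carrier of TGF-beta and activin signals, was at 225, 223 and 233 on the arrays lowest in CCND1, at 197, 226 and 199 on the next 3, at 226, 197 and 209 on those lowest in CDK4 and at 177, 193 and 201 on those high in both. The first 3 arrays lay near the top and overlapped the rest, and its second probe, ILMN_1771203, likewise gave 67.1 to 71.7 there and 54.9 to 68.8 elsewhere. On that probe the 3 arrays next lowest in CCND1 were at 57.6, 54.9 and 58.4, below the 62.1 to 71.7 of the other 9. The brighter probe did not repeat this. SMAD3, its partner in the same branch, was at 997, 1002 and 1005 on the arrays lowest in CCND1, at 844, 1092 and 976 on the next 3, at 979, 1108 and 1078 on those lowest in CDK4 and at 993, 1090 and 1092 on those high in both. SMAD4, shared by both branches, was at 501, 434 and 489, at 476, 535 and 467, at 548, 472 and 455 and at 484, 560 and 509 on the same sets. Neither showed a split. SMAD1 was above background on 2 arrays.

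The inhibitors inside the cell showed no split by CCND1 or CDK4. SMAD6, an inhibitory SMAD of the BMP branch, varied 1.62-fold, with 428, 527 and 521 on the arrays lowest in CCND1, 433, 384 and 433 on the next 3, 390, 538 and 452 on those lowest in CDK4 and 470, 333 and 493 on those high in both. Each of the 4 sets overlapped the others. SKI and SKIL, which repress SMAD target genes, spanned 113 to 152 and 66.3 to 83.3. SMURF1 and SMURF2, ubiquitin ligases that target receptors and SMADs, spanned 90.2 to 115 and 93.4 to 125. The corepressor TGIF1 spanned 604 to 725. Of the antagonists other than FST, NOG (noggin), which binds BMPs outside the cell, was at 231, 195 and 214 on the arrays lowest in CCND1, at 255, 284 and 265 on the next 3, at 254, 216 and 240 on those lowest in CDK4 and at 229, 258 and 225 on those high in both. Its 2 lowest values were thus on arrays lowest in CCND1 and its 2 highest on the next 3. These 2 sets did not overlap each other, at 195 to 231 and 255 to 284. Neither stood apart from all other arrays. GREM1, another secreted BMP antagonist, was above background on 3 arrays. BAMBI, a decoy receptor, lay at 1253 to 1694.

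PMEPA1, a TGF-beta target that feeds back on the pathway, was lowest on the arrays high in both CCND1 and CDK4, at 334, 325 and 322. It was at 381, 392 and 411 on the arrays lowest in CCND1, at 354, 427 and 402 on the next 3 and at 347, 341 and 393 on those lowest in CDK4, with a ratio of medians of 0.829 to the other 9. A dim second probe, ILMN_1657823, above background on 8 arrays, did not repeat this split. It gave 43.8 to 50.5 on the arrays high in both and 38.1 to 58.9 on the other 9, with a ratio of medians of 1.07. TGFB1, SMAD5 and PMEPA1 were the 3 of 35 tested genes, 8.57%, that stood apart on the arrays high in both, close to the 7.07% of all genes tested. The summed leukocyte markers were also lower there, at 375 to 404 against 426 to 534, with CD14 apart, 1 of the 2 tested leukocyte markers, and LYZ, the other, overlapping. COL1A2 was lower there as well, 1 of 4 tested fibroblast markers. The sums, again mostly COL1A2, were 4346 to 4874 against 4877 to 5344. The part of these markers was not tested. TGFBI, a matrix protein gene induced by TGF-beta, spanned 1893 to 2615 without such a split.

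Other genes of the pathway came from lists of ligands and antagonists, of transducers and of response genes. FURIN, a convertase that cleaves the TGF-beta precursor, was much lower on the arrays lowest in CCND1, at 140, 153 and 146. It was at 236, 227 and 273 on the next 3, at 220, 245 and 240 on those lowest in CDK4 and at 246, 227 and 213 on those high in both, with a ratio of medians of 0.619. LEMD3, an inner nuclear membrane protein that binds SMADs and restrains their signal, was at 562, 582 and 550 on the arrays lowest in CCND1 and at 651 to 787 on the other 9, and its second probe gave 259 to 275 against 301 to 375. ID1, a classical BMP target, was at 1734, 1719 and 1750 and at 1114 to 1451. Its dimmer probe, ILMN_1665832, overlapped, with 146, 145 and 117 against 106 to 154. These were 1 of 22, 1 of 36 and 1 of 44 tested genes of the respective lists, 4.55%, 2.78% and 2.27%, where the share of all genes tested was 2.97%.

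For the 6 arrays low in CCND1, SNX6, a sorting nexin reported to bind receptors of this family, was at 821 to 944 against 615 to 785. SNAI2, the gene of the mesenchymal factor Slug, was at 1318 to 1682 against 1122 to 1261. These were 1 of 36 and 1 of 44 tested genes of their lists, with 0 of 22 in the list of ligands and antagonists, beside 0.963% of all genes. The dimmer probes of both genes overlapped between these sets. ITGAV, an integrin chain that helps to release latent TGF-beta, was at 375, 408 and 409 on the arrays lowest in CDK4 and at 428 to 513 on the others. It was the only gene of the 3 lists to stand apart on those arrays, with 1 of 22, 0 of 36 and 0 of 44 tested, beside 1.51% of all genes.

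**Figure D3:**
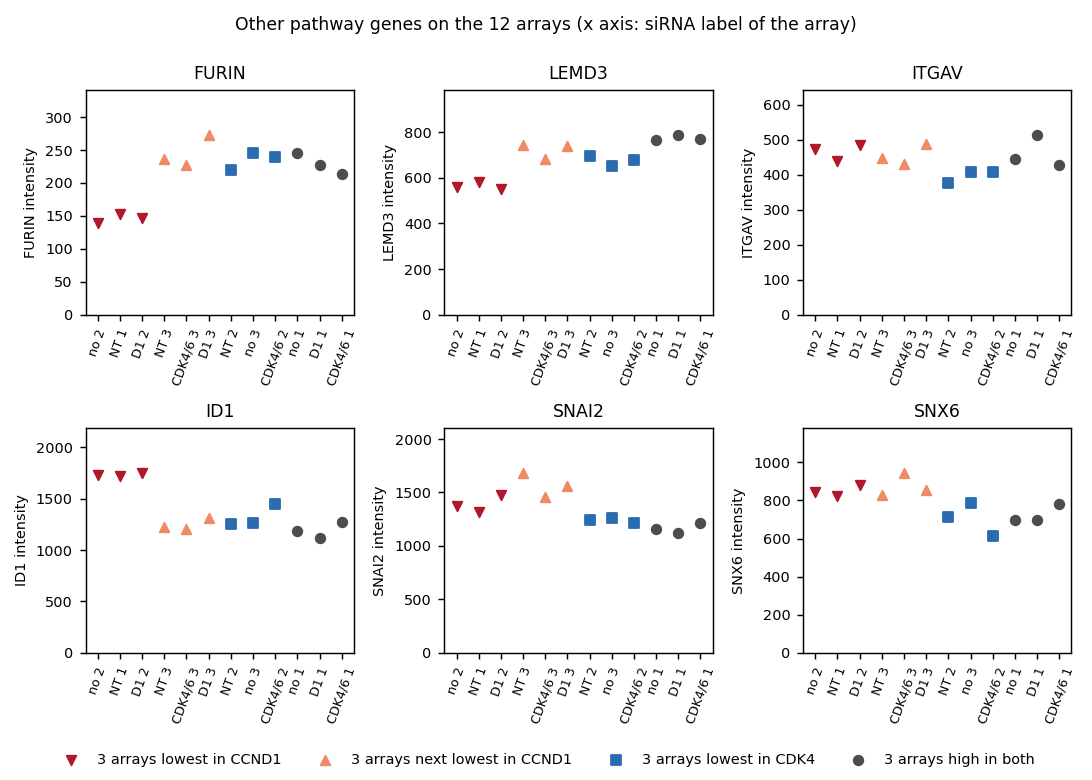
Intensity of 6 pathway genes outside the 42 on the 12 arrays (labels on the x axis without the word siRNA; NT, non-targeting; D1, cyclin D1), marked by CCND1 and CDK4 level. FURIN lies at 140 to 153 on the 3 arrays lowest in CCND1 and at 213 to 273 on the other 9.

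By label, no gene of the pathway passed the test. With limma over all 12 arrays, 0 of 35 tested genes were called between the label cyclin D1 siRNA and the label non-targeting siRNA, as for all 13601 genes (0%). The count was also 0 of 35 with the CDK4/6 siRNA label set against either of these, and with the no siRNA label set against the non-targeting one, each beside 0% of all genes. At an unadjusted p under 0.05, limma gave 2 genes of the pathway for each siRNA over the non-targeting pool. Of all genes, 3.04% passed for cyclin D1 and 1.82% for CDK4/6. Limma gave 0 for cyclin D1 over CDK4/6, beside 1.39% of all genes. It also gave 0 for no siRNA over the non-targeting pool, beside 1.82% of all genes. The methods' t-test gave 1 gene each for CDK4/6 over the non-targeting pool and for cyclin D1 over CDK4/6, 0 in the others and 0 anywhere after adjustment. Of all genes, 1.95% and 1.49% passed the same unadjusted t-test in those 2 comparisons, and 2.40% for cyclin D1 and 2.01% for no siRNA over the non-targeting pool. The lowest adjusted p of a pathway gene was 0.9998. Standard errors of the log2 fold changes had a median of 0.09 and reached 0.17 for TGFBR2. Since the labels stand against CCND1 and CDK4, these values compare labels and not known treatments, and an adjusted p of this size does not show that the genes were alike.

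The highest log2 fold change for the label cyclin D1 siRNA was that of TGFBI. Its intensity was 2615, 2263 and 2250 on the arrays of that label and 2046, 2166 and 1893 on those labelled non-targeting siRNA. The groups did not overlap, and the log2 fold change was 0.22 (standard error 0.09). TGFB3 did not overlap either, at 57.9, 61.2 and 57.6 against 51.6, 48.9 and 57.1, a log2 fold change of 0.12 (standard error 0.05). These were 2 of 35 genes, while the arrays of these labels did not overlap for 7.63% of all genes. SMURF2 had the lowest value, -0.09 (standard error 0.08), which became -0.007 without cyclin D1 siRNA 3.

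For the label CDK4/6 siRNA, SMAD3 was at 1092, 1078 and 1092 against 1002, 979 and 844 with non-targeting siRNA, a log2 fold change of 0.21 (standard error 0.07). SMURF2 was at 104, 97.9 and 106 against 120, 109 and 113, a log2 fold change of -0.13 (standard error 0.08). With TGFB3, these were the 3 of 35 genes without overlap, beside 6.12% of all genes. Between the labels cyclin D1 siRNA and CDK4/6 siRNA, TGFB2 had the highest value, 0.11 (standard error 0.15; -0.02 without cyclin D1 siRNA 3), and ACVR2B the lowest, -0.14 (standard error 0.07), the latter the 1 gene without overlap beside 4.49% of all genes. Between no siRNA and non-targeting siRNA, FST had the highest, 0.19 (standard error 0.16), and TGFBR2 the lowest, -0.13 (standard error 0.17), while SKI alone did not overlap, beside 6.65% of all genes. The FST value was 0.09 without no siRNA 1 and 0.32 without no siRNA 2, and the TGFBR2 value -0.02 without no siRNA 2. All comparisons with non-targeting siRNA share its 3 arrays.

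By label, none of the genes that sorted by CCND1 or CDK4 level passed the test. CCND1 was at 13878, 3513 and 5100 on the arrays labelled cyclin D1 siRNA. It was at 2951, 14187 and 4311 on those labelled non-targeting siRNA. Both labels thus mixed low and high CCND1 alike, so their comparison could hardly show a change that follows CCND1. The next values are for the cyclin D1 label over the non-targeting label. On the log2 scale, TGFB1 changed by 0.07 (standard error 0.11), FST by 0.04 (standard error 0.16) and BMPR2 by -0.02 (standard error 0.10). ACVR2A changed by 0.11 (standard error 0.13), SMAD5 by 0.03 (standard error 0.10) and PMEPA1 by 0.05 (standard error 0.11). With the CDK4/6 label over the non-targeting label, ACVR2A was at 0.14 (standard error 0.13) and TGFB1 at 0.09 (standard error 0.11). Over the 35 genes the median log2 fold change was 0.02, with 19 above 0 and 16 below, and over all genes tested it was 0.0032. Of the other lists, 0 of 22, 0 of 36 and 0 of 44 tested genes passed the test in either direction in this comparison.

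**Figure D4:**
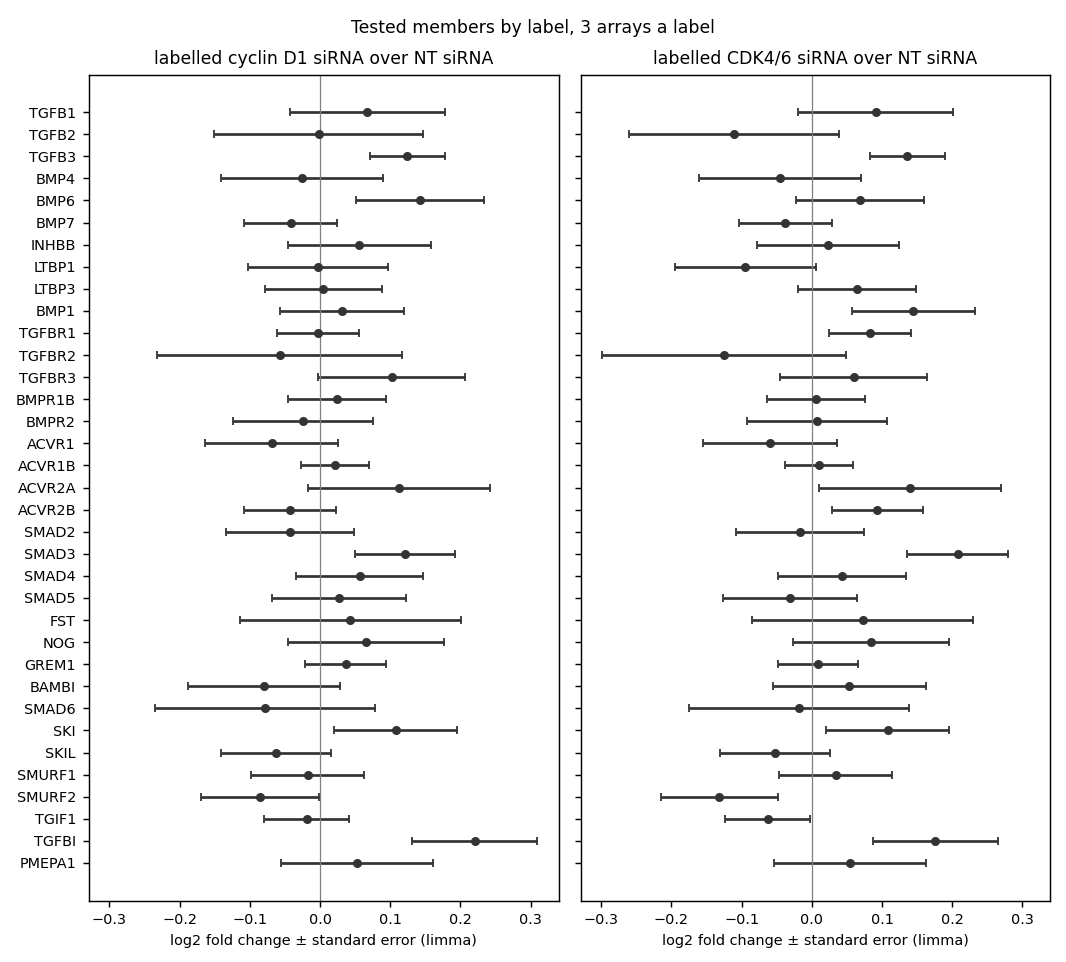
Log2 fold change with its standard error (limma, 3 arrays a label) of the 35 tested pathway genes, for arrays labelled cyclin D1 siRNA and CDK4/6 siRNA over those labelled non-targeting (NT) siRNA. TGFBI has the highest value at the left, 0.22, and SMAD3 at the right, 0.21, and no gene passed the test.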

How the data were processed

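The values deposited by the authors are linear bead intensities, 1 for each of 48803 probes on an array. When each array was sorted, 99.97% of ranks matched to within 0.5%, as after quantile normalization, and the lowest intensity was 28. The sources used here do not name the software, background setting or normalization. A second table, with 24 per-sample columns whose names match no label, was not used. For the test the intensities of the first table received a normexp correction (offset 50), a quantile normalization and a log2 transform in R 4.3.3, which shrinks changes of dim probes. The background level was the intensity that dim probes exceed with a one-sided p of 0.05, given their most frequent value (39.4) and the spread on its lower side. Probes above 44.2 on at least 3 arrays were tested (27229 probes, 13601 genes) with limma 3.58.1, two-sided, with Benjamini-Hochberg adjustment over all tested probes and a threshold of 0.05. Names came from the 27578 probes with 1 symbol, while 13 had several and 21212 none. A gene was its brightest probe, and intensities are printed as deposited. No 2 arrays agreed at over 0.698% of tested probes. The fit was tested on simulated data. The 42 genes, the other lists and the rule for named genes (genes that stood apart by CCND1 or CDK4 level, had the widest ranges, form the core of the pathway or had the extreme log2 fold changes) were chosen with earlier results of these data known. The arrays high in both CCND1 and CDK4 were added as a set after the values were seen. Figures used matplotlib 3.10.9.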

Additional observations from a re-analysis of the deposited data

How the results depend on the processing

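By label, 0 genes of the pathway were called under every alternative run: other background corrections, no second normalization, other filters, array weights, the 2 groups alone, the methods' t-test, the mean over probes, arrays without siRNA as the control, and without each replicate in turn (0 to 0). With the replicate block the count was 0 in each comparison. Replicate numbers were not used as a pairing in the main fit. Same-numbered arrays deviated from their label means with correlations of -0.24 to 0.42, over 0.1 in 10 of 18 pairs. Of the 12 arrays, 5 were closest to one of their own number. As the labels mix arrays of different CCND1 and CDK4 level, these values cannot decide whether arrays are paired. The lowest adjusted p of limma over all alternatives was 0.911, without cyclin D1 siRNA replicate 2. The log2 fold change of TGFB2 for cyclin D1 siRNA against CDK4/6 siRNA turned from 0.11 to -0.019 without cyclin D1 siRNA replicate 3, with a range of -0.019 to 0.29 over left-out replicates. Leaving out 1 array moved 4 other values by over 1.5 times. For cyclin D1 siRNA over the non-targeting pool, SMURF2 (-0.09) was -0.14 without cyclin D1 siRNA replicate 1, -0.007 without replicate 3 and -0.05 without non-targeting siRNA replicate 1. For CDK4/6 siRNA, SMAD3 (0.21) was 0.13 without non-targeting siRNA replicate 3. For no siRNA, FST (0.19) was 0.09 without no siRNA replicate 1 and 0.32 without replicate 2, and TGFBR2 (-0.13) was -0.02 without no siRNA replicate 2 and -0.06 without non-targeting siRNA replicate 3. TGFB2 also lay at 0.23 without cyclin D1 siRNA replicate 1, and at 0.03, 0.29 and 0.01 without CDK4/6 siRNA replicates 1, 2 and 3. Other settings moved values as well. Measured from the no siRNA label instead, SMAD3 for CDK4/6 siRNA was 0.075 and SMURF2 for cyclin D1 siRNA -0.054. Over the non-targeting pool, SMAD3 lay at 0.13 (standard error 0.07) for the no siRNA label itself. The mean over probes put TGFBR2 for no siRNA at -0.076. A normexp offset of 16 put ACVR2B for cyclin D1 siRNA over CDK4/6 siRNA at -0.25, from -0.14 in the main fit. The causes were not tested. A block for the slide could not be run, as no source used here places the arrays on chips. With the mean over all tested probes of a gene, the genes apart on the arrays lowest in CDK4 fell from 1, SMAD5, to 0. Those apart on the arrays high in both became TGFB1 and ACVR2A in place of TGFB1, SMAD5 and PMEPA1. TGFB1 and FST, and BMPR2 and ACVR2A, stood apart under all 6 alternatives, but most of these could hardly alter that. The background corrections and the second normalization barely change the order of arrays within a gene. The filters leave the values of these genes as they were. Only the mean over probes could readily move FST, BMPR2 and ACVR2A, while TGFB1 has 1 probe. Intensities near 44.2 limit what any setting can show for BMP7, ACVR1B, GREM1 and other dim probes.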

Other observations

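Further genes of the other pathway lists stood apart on the 3 arrays high in both CCND1 and CDK4, a set that was added after the values were seen and was not tested. UCHL5 and USP15, deubiquitinating enzymes reported to act on TGF-beta receptors, were at 865 to 924 against 697 to 845 and at 133 to 152 against 154 to 186. IL11, a cytokine gene induced by TGF-beta, was at 581 to 662 against 479 to 553, and TSC22D1, another TGF-beta-induced gene, was at 2506 to 2607 against 2613 to 2896. LEMD3 and SNAI2 also stood apart there. These were 3 of 36 tested transducers, 8.33%, and 3 of 44 response genes, 6.82%, beside 7.07% of all genes tested. In the list of ligands and antagonists, 0 of 22 stood apart.

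TGFB2 and its receptor TGFBR2 were both highest on cyclin D1 siRNA 3, at 327 and 6536, and next highest on CDK4/6 siRNA 2, at 324 and 6334. This order holds for the brighter TGFBR2 probe. On its second probe, ILMN_1726245, CDK4/6 siRNA 2 was at 958 in a range of 920 to 1289, and the highest array was CDK4/6 siRNA 3. Cyclin D1 siRNA 3 and CDK4/6 siRNA 2 share neither a label nor a set by CCND1 or CDK4 level.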
